A study of Mus musculus with 8 samples.

Results

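St18 (ENSMUSG00000033740) was 1 of the 32285 genes counted in single nuclei of mouse liver, and it was chosen by its symbol after earlier results of these data were known. It is a protein-coding gene on the plus strand of chromosome 1, from 6487231 to 6860940 (GRCm38/mm10, GENCODE M21), and 0 other annotated genes overlap it. The values that led to the choice were its UMIs (counted RNA molecules) by library and by cell class, and its detection in the same nuclei as Gpnmb, Trem2, Clec4f and Ccr2. These values are therefore described here without a test.

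St18, also called Myt3, encodes a zinc-finger transcription factor of the Myt1 family, which is best known from nervous tissue, oligodendrocyte-lineage cells and the endocrine pancreas. The liver holds Kupffer cells, its resident macrophages, which express the lectin Clec4f, and macrophages that derive from blood monocytes, which carry the chemokine receptor Ccr2. In fatty liver, lipid-associated macrophages express Trem2, a lipid-sensing surface receptor, and Gpnmb, a membrane glycoprotein of lysosome-rich macrophages.

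The 8 libraries came from snap-frozen livers of 8 male DIAMOND mice, a cross given in the labels as 129A1/SvIm and C57BL/6J, with 1 mouse per library. All mice had been fed the high-fat, high-sugar Western diet (WD). The 3 WD tumour mice stayed on WD for 48 weeks and had hepatocellular carcinoma. The 5 reversed-diet (RD) mice went back to standard chow after 36 weeks of WD: 3 had no detectable tumour (RD no tumour) and 2 had hepatocellular carcinoma (RD tumour). The sources disagree on the age at sampling, no group was kept on chow throughout, and the labels do not say whether the sampled piece held tumour tissue.

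Each library had 6048 to 20000 nuclei with at least 300 detected genes, 17948627 to 34363108 UMIs in those nuclei, and a median of 1120 to 2656 UMIs per nucleus. RD tumour 1 had exactly 20000 barcodes, and its summed profile correlated at 0.883 to 0.933 with the other libraries (Pearson r across genes), against 0.958 to 0.994 among the other 7. It is given apart, which leaves RD tumour 2 as the single other library of its group. A total of 776 barcode sequences occurred in more than 1 library, at most 65 in any pair. WD tumour 2 and RD no tumour 1 were each other's nearest library (r = 0.987), although they belong to different groups.

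Over whole libraries, St18 was at 19.7, 48.4 and 34.4 CPM (St18 UMIs divided by all UMIs and scaled to 1000000) in WD tumour 1, 2 and 3. It was at 5.76, 11.7 and 11.2 CPM in RD no tumour 1, 2 and 3, and at 70.4 CPM in RD tumour 2. Every WD tumour mouse lay above every RD no tumour mouse, which held in that direction for 6.92% of the 19630 genes tested in whole libraries. The WD tumour mean was 34.1 ± 14.4 CPM and that without tumour 9.55 ± 3.29 CPM (SD, 3 mice in each group), a fitted log2 difference of 1.76 ± 0.42 (SE, edgeR). RD tumour 1 had 69 St18 UMIs among its 34363108, or 2.01 CPM (exact Poisson 95% interval 1.56 to 2.54, counting error only), below each of the other 7 libraries.

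Macrophage nuclei were picked by a gate. A nucleus entered it with at least 3 of 12 macrophage markers (such as Adgre1, Csf1r and Mpeg1), more than of any other class except hepatocytes, and marker UMIs at 2 times or more the share found in its whole library. The gate held 6895 nuclei over the 8 libraries, with a median of 4 or 5 of the 12 macrophage markers per nucleus. No marker of another class was among its 10 leading genes in any library. Albumin RNA of hepatocytes was still present in it at 3511 to 15422 CPM. The gate was less sharp in WD tumour 2 and RD no tumour 1, where the leading gene was above all other nuclei by a log2 ratio of 2.95 and 3.08, against 4.03 to 4.67 in the other 4 mice of these groups, 3.18 in RD tumour 2 and 1.47 in RD tumour 1. Gated nuclei with exactly 3 markers had 26.1 and 11.6 CPM of St18 in WD tumour 2 and RD no tumour 1, against 55.3 and 197 CPM in WD tumour 1 and 3 and 45.9 and 52.1 CPM in RD no tumour 2 and 3. The part of this in their shares and levels was not tested.

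In macrophage-gated nuclei St18 was at 241, 194 and 355 CPM in WD tumour 1, 2 and 3, from 345, 1319 and 574 nuclei. In RD no tumour 1, 2 and 3 it was at 26.6, 103 and 93.3 CPM, from 1705, 599 and 515 nuclei. The groups did not overlap, a separation in this direction that 4.24% of the 13186 genes tested in macrophage-gated nuclei also had. The means were 263 ± 83.1 CPM and 74.4 ± 41.7 CPM (SD, 3 mice in each group), a fitted log2 difference of 1.81 ± 0.52 (SE, edgeR), and St18 ranked 100th from the highest among those genes.

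**Figure D1:**
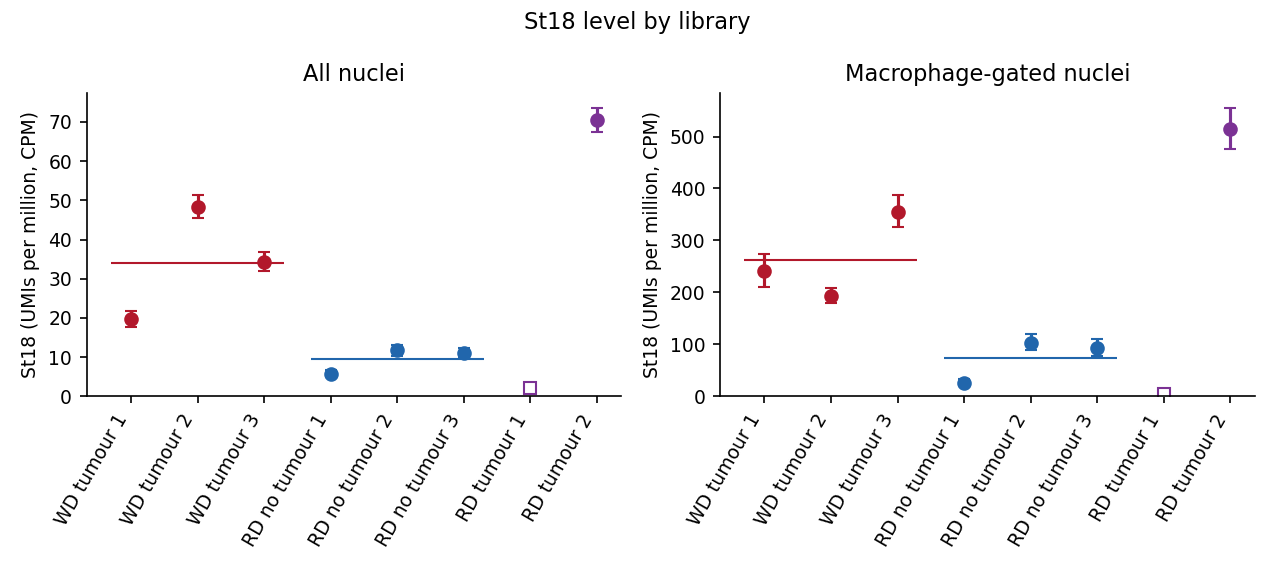
St18 level in each library over all nuclei (left) and over macrophage-gated nuclei (right), in CPM on linear axes that start at 0. Points are single mice with exact Poisson 95% intervals, horizontal lines are the group means, and the open square is RD tumour 1. In macrophage-gated nuclei the WD tumour mice sit at 194 to 355 CPM, the RD no tumour mice at 26.6 to 103 CPM, and RD tumour 2 at 515 CPM.

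RD tumour 2 had the highest level of the 8 libraries in this gate, 515 CPM from 642 nuclei (exact Poisson 95% interval 476 to 555). RD tumour 1 had 8 St18 UMIs in 1196 gated nuclei, or 5.28 CPM (2.28 to 10.4); 0.334% of these nuclei held a St18 UMI, and 0 of its 361 hepatocyte-gated nuclei did, which allows a share of up to 0.831% (3 counts of the total; exact binomial 95% limit 1.02%). The pair of mice that share the label RD tumour were thus at opposite ends of the series, and no mean is given for them. The order of levels was RD tumour 2, WD tumour 3, 1 and 2, then RD no tumour 2, 3 and 1, then RD tumour 1. The counting intervals of RD no tumour 2 and 3 overlapped, while those of WD tumour 1 and 2 (211 to 274 and 179 to 209) did not.

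WD tumour 2 and RD no tumour 1 were each other's nearest library (r = 0.9869). As the groups did not overlap, any such pair has a gap in the same direction, and its size alone is described. These libraries were not the nearest pair of all. WD tumour 1 and RD no tumour 2, also from different groups, correlated at 0.9874 and had 241 and 103 CPM. WD tumour 2 against RD no tumour 1 gave a log2 ratio of 2.87, and the other 2 WD tumour mice against the other 2 RD no tumour mice gave 1.60. RD no tumour 1 had the lowest St18 level of its group, and without it the fitted log2 difference was 1.42.

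A gated nucleus was also more often scored positive for St18 in WD tumour. A St18 UMI was found in 24.9%, 15.7% and 30.5% of macrophage-gated nuclei in WD tumour 1, 2 and 3, against 3.52%, 14.5% and 12.4% in RD no tumour 1, 2 and 3, and in 30.7% in RD tumour 2. These shares did not overlap between WD tumour and RD no tumour, although WD tumour 2 and RD no tumour 2 had overlapping exact binomial 95% intervals (13.8 to 17.8% and 11.8 to 17.6%). Hepatocyte-gated nuclei served as a reference. Whether their St18 UMIs were their own or stray RNA was not tested. In these nuclei the shares were 0.605%, 0.899% and 1.21% in WD tumour 1, 2 and 3. They were 0.240%, 0.564% and 0.469% in RD no tumour 1, 2 and 3, and 2.34% in RD tumour 2. Median depths were 828 to 3778 UMIs, against 1450.5 to 2676 in macrophage-gated nuclei. The hepatocyte-gated shares did not overlap between WD tumour and RD no tumour either. St18 levels in the hepatocyte gate were 5.29, 5.66 and 6.55 CPM against 1.06, 1.59 and 1.93 CPM. The part of this signal in the macrophage gap was not tested. The macrophage shares of these 7 libraries lay above the hepatocyte-gated shares.

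Detection depends on depth, so each nucleus was also thinned to 1000 UMIs. The share of thinned macrophage-gated nuclei with a St18 UMI was 15.4%, 11.9% and 20.1% in WD tumour 1, 2 and 3. It was 2.12%, 5.40% and 9.40% in RD no tumour 1, 2 and 3, and 27.4% in RD tumour 2. The gap between WD tumour 2 and RD no tumour 2 was wider at equal depth. However, thinning removed 385 of 1319 gated nuclei from WD tumour 2 and 6 of 599 from RD no tumour 2. The part of this uneven loss in the wider gap was not tested. The closest mice of the 2 groups were then WD tumour 2 and RD no tumour 3. Their exact binomial intervals overlapped (9.88 to 14.1% and 6.91 to 12.4%). Thinning left out 499 WD tumour nuclei, 252 RD no tumour nuclei and 160 nuclei of RD tumour 2 that were under 1000 UMIs. In thinned hepatocyte-gated nuclei the share was 0.402% to 0.911% in the WD tumour mice and 0.101% to 0.178% in the RD no tumour mice.

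St18 was not spread evenly within the gate. A nucleus with any St18 UMI held 2.89 ± 0.214 of them on average in the WD tumour mice, 1.92 ± 0.280 in the RD no tumour mice (SD, 3 mice in each group) and 3.38 in RD tumour 2. Nuclei with 2 or more made up 13%, 10.5% and 17.9% of the gate in WD tumour 1, 2 and 3, yet held 82.2%, 89.3% and 85.8% of its St18 UMIs. In RD no tumour 1, 2 and 3 such nuclei made up 0.997%, 6.34% and 6.02% of the gate and held 55.2%, 73.4% and 74.8% of its St18 UMIs. The highest count in 1 nucleus was 22 UMIs in WD tumour 3 and 24 in RD tumour 2, against 13 in RD no tumour 2.

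Macrophage-gated nuclei made up 5.34%, 18.7% and 6.47% of nuclei in WD tumour 1, 2 and 3, and 16.6%, 9.90% and 4.98% in RD no tumour 1, 2 and 3. The mean difference was -0.333 percentage points (two-sided exact permutation p = 1, where 3 against 3 cannot go below 0.1). WD tumour 2 and RD no tumour 1, where the gate was less sharp, had the largest gated shares and the lowest St18 level of their groups.

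Over all nuclei, the macrophage gate held 65.2%, 59.0% and 60.1% of the library's St18 UMIs in WD tumour 1, 2 and 3. It held 57.1%, 69.4% and 36.4% in RD no tumour 1, 2 and 3, and 34.7% in RD tumour 2. Nuclei in no class or tied between classes held 12.5% to 37.2% in the 6 mice and 47.4% in RD tumour 2. Counted over all nuclei without any gate, St18 followed the number of macrophage markers. Its level in WD tumour 1, 2 and 3 was 5.29, 3.69 and 6.23 CPM in nuclei with 0 macrophage markers and 146, 169 and 259 CPM in nuclei with 7 or more. In RD no tumour 1, 2 and 3 the same levels were 0.734, 1.56 and 2.11 CPM and 14.3, 78.7 and 58.0 CPM. RD tumour 1 showed no such climb, with 4.32 CPM at 0 markers and 0.760 CPM at 7 or more, the latter from 2 UMIs.

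**Figure D2:**
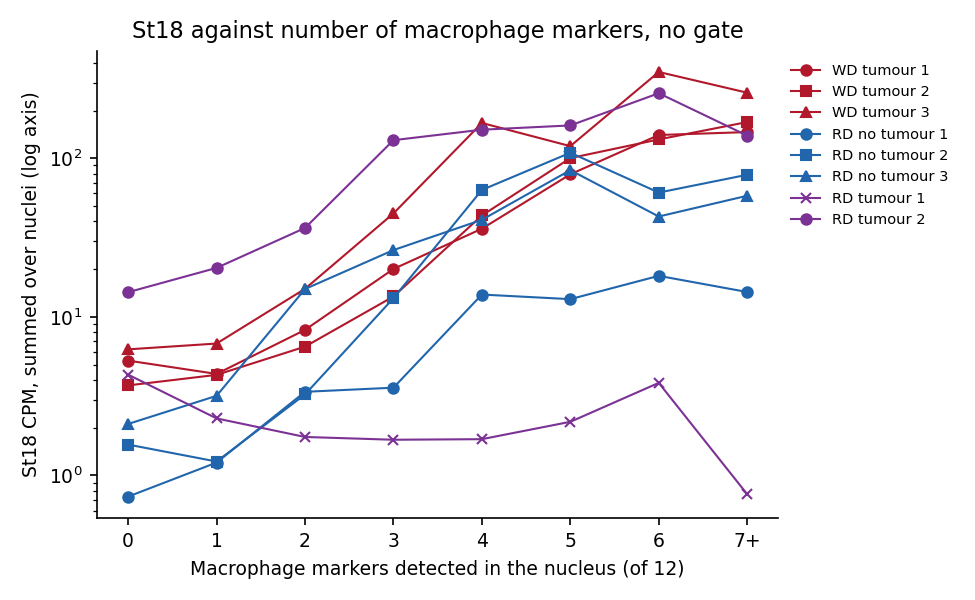
St18 level (CPM, log axis) summed over all nuclei of a library, by the number of the 12 macrophage markers detected in the nucleus, with no gate applied. Each line is 1 library, coloured by group. The level peaks at 5 or more markers in 7 libraries, is at 259 CPM for 7 or more markers in WD tumour 3, and stays between 0.760 and 4.32 CPM in RD tumour 1.

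Dendritic-gated nuclei, 24 to 49 per library outside RD tumour 1, had 0 to 82.7 CPM from at most 15 UMIs. Endothelial-gated nuclei were at 15.9, 28.8 and 41.6 CPM in WD tumour 1, 2 and 3, 4.0, 12.6 and 17.4 CPM in RD no tumour 1, 2 and 3, and 63.9 CPM in RD tumour 2. Those with a St18 UMI held a median of 3 to 6 macrophage markers in these 7 libraries, against 0 or 1 in those without. Their median depth was 3306.5 to 7971.5 UMIs, against 1215 to 2313. Just 22 St18-positive endothelial-gated nuclei of the 7 libraries held 0 macrophage markers, with 30 St18 UMIs in all. Stellate or fibroblast, T or NK and cholangiocyte gates were at 0 to 10.2 CPM in WD tumour and RD no tumour, from at most 13 UMIs in a library. In RD tumour 2 they were higher, at 26.2, 26.9 and 25.9 CPM, from 46, 4 and 9 UMIs. The B gate was at 0 to 28.6 CPM in WD tumour and RD no tumour, from at most 4 UMIs. It was at 40.8 CPM in RD tumour 2, from 15 UMIs.

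RD tumour 2 also held RNA of pancreas, where St18 is known to be expressed. Insulin genes Ins1 and Ins2 were at 5.99 and 13 CPM and the acinar genes Cela1 and Cpa1 at 125 and 31.6 CPM, whereas in the other 7 libraries Ins1 was at 0 and Ins2 and Cpa1 were at most at 0.167 and 0.0686 CPM, and Cela1 was at 3.17 to 9.27 CPM. Every nucleus that held 1 or more of 6 pancreas genes (Ins1, Ins2, Gcg, Chga, Cela1 and Cpa1) was then left out. The St18 level of RD tumour 2 was 62.9 CPM in the whole library instead of 70.4, and 548 CPM in the 511 remaining macrophage-gated nuclei instead of 515. A further pancreas gene, Prss2, was at 39.6 CPM in RD tumour 2 but was not among the 6, so nuclei with Prss2 alone stayed in. Among its unassigned and tied nuclei the level was 44.0 CPM without a pancreas gene and 81.7 CPM with 1 or more.

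St18 was found in a larger share of nuclei with Gpnmb than of nuclei without it in the 7 libraries other than RD tumour 1, although most St18 nuclei held no Gpnmb UMI. Of the macrophage-gated nuclei with a Gpnmb UMI, 30 of 47, 8 of 25 and 62 of 94 held St18 in WD tumour 1, 2 and 3 (63.8%, 32.0% and 66.0%), against 18.8%, 15.4% and 23.5% of nuclei without Gpnmb. In RD no tumour 1, 2 and 3, 7 of 28, 6 of 13 and 4 of 6 Gpnmb nuclei held St18 (25%, 46.2% and 66.7%), against 3.16%, 13.8% and 11.8%, and in RD tumour 2, 20 of 34 against 29.1%. The log2 odds ratio was 1.42 to 3.74 over these 7 libraries, and at 1000 UMIs per nucleus it was 1.75 to 3.28, with 9 or fewer St18 nuclei that also held Gpnmb in 5 of them.

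Trem2 gave the same direction at full depth. St18 was present in 14 of 26, 49 of 115 and 30 of 60 Trem2 nuclei of WD tumour 1, 2 and 3, in 8 of 59, 5 of 25 and 3 of 10 of RD no tumour 1, 2 and 3, and in 3 of 5 of RD tumour 2. The log2 odds ratio was 0.68 to 2.33. At equal depth it was 0.61 to 2.05 in 6 libraries and -0.31 in RD no tumour 2, where 0 of 10 thinned Trem2 nuclei held St18.

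Clec4f, the Kupffer cell lectin, divided the libraries. Of nuclei with Clec4f, 33.3% and 35.6% held St18 in WD tumour 1 and 3 against 17.7% and 24.5% without it, and 18.7% and 19.9% in RD no tumour 2 and 3 against 8.05% and 5.58%. In RD tumour 2 the shares were 50.2% and 17.2%. In WD tumour 2 and RD no tumour 1 the order was the other way, 13.8% against 16% and 3.20% against 3.64%, with log2 odds ratios of -0.23 and -0.16. These were the libraries where the smallest share of gated nuclei of their group held Clec4f, 14.3% and 27.5%. At 1000 UMIs per nucleus the log2 odds ratio with Clec4f was 0.15, -0.72 and 0.58 in WD tumour 1, 2 and 3, -0.10, 1.00 and 1.56 in RD no tumour 1, 2 and 3, and 1.44 in RD tumour 2.

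Ccr2 showed no shared direction at full depth. The log2 odds ratio was 1.34, 0.98 and 0.18 in WD tumour 1, 2 and 3, -0.03, -0.003 and -1.01 in RD no tumour 1, 2 and 3, and -0.96 in RD tumour 2. At equal depth 6 of these 7 libraries were below 0, and WD tumour 1 was at 0.11, with 2 nuclei that held both genes. That value owes its sign to the 0.5 added to each count. In thinned WD tumour 1, 14.3% of Ccr2 nuclei held St18 against 15.5% of the others. The share was thus lower with Ccr2 in each of the 7 libraries at equal depth, from at most 6 nuclei with both genes.

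**Figure D3:**
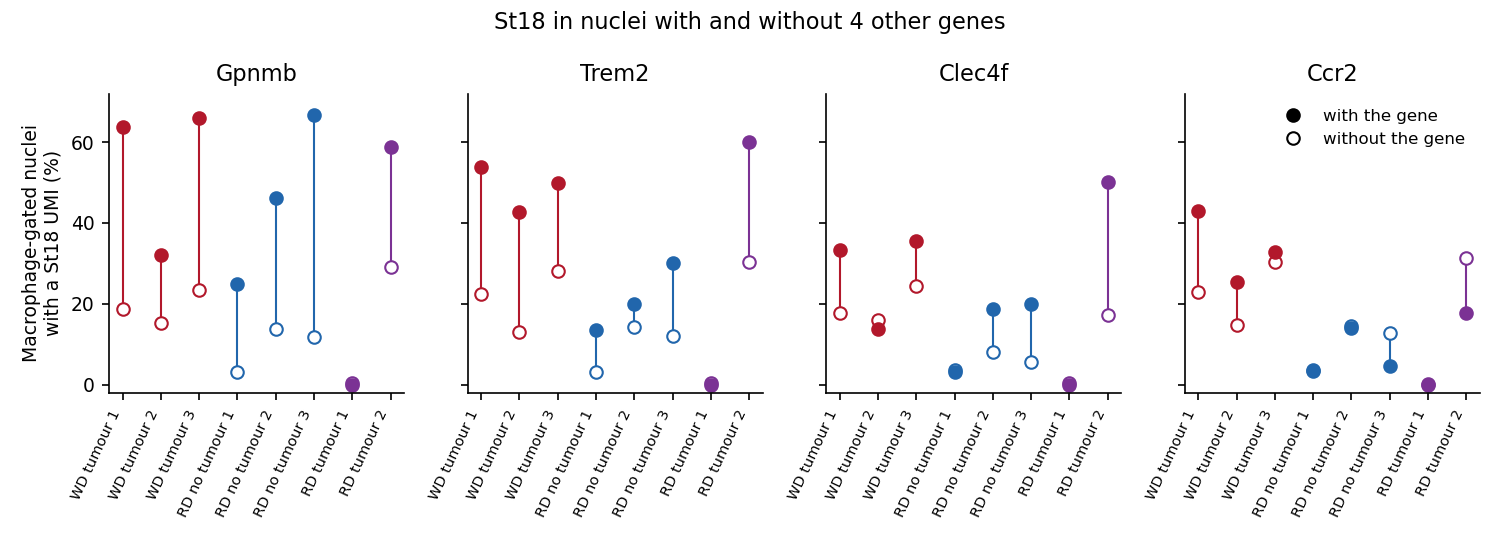
Share of macrophage-gated nuclei with a St18 UMI (percent) among nuclei with a UMI of Gpnmb, Trem2, Clec4f or Ccr2 (filled) and among nuclei without (open), at full depth, 1 vertical line per library. For Gpnmb the filled point is above the open point in the 7 libraries other than RD tumour 1, and for Ccr2 the order differs between libraries. RD tumour 1 is at 0 in each filled point, with 4 St18-positive nuclei in all.

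The St18 level was compared between the groups in nuclei set by these genes. Macrophage-gated nuclei with Gpnmb or Trem2 had 554, 362 and 675 CPM in WD tumour 1, 2 and 3 and 96.1, 131 and 309 CPM in RD no tumour 1, 2 and 3. Nuclei in which none of the 4 genes was detected had 98.1, 181 and 152 CPM in WD tumour 1, 2 and 3 and 25.8, 70.0 and 29.2 CPM in RD no tumour 1, 2 and 3. Neither of these sets overlapped between the groups. Split by Clec4f, the Gpnmb or Trem2 nuclei did overlap: with Clec4f the lowest WD tumour level was 242 CPM and the highest RD no tumour level 261 CPM, and without Clec4f they were 395 and 466 CPM, the last from 6 nuclei. All nuclei with Clec4f overlapped as well, with a lowest WD tumour level of 108 CPM and a highest RD no tumour level of 131 CPM.

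Nuclei with Clec4f but neither Gpnmb nor Trem2 had 181, 76.4 and 290 CPM in WD tumour 1, 2 and 3 and 19.5, 117 and 124 CPM in RD no tumour 1, 2 and 3. Here the groups overlapped through WD tumour 2. In RD tumour 2 this Kupffer-marked set was at 659 CPM, from 249 nuclei, and held 62.6% of the gate's St18 UMIs, while Gpnmb or Trem2 nuclei numbered 37 and held 13.5%. In WD tumour 1 and 3 the Gpnmb or Trem2 nuclei held 53.0% and 48.0% of the gate's St18 UMIs, from 18.3% and 20.4% of its nuclei.

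**Figure D4:**
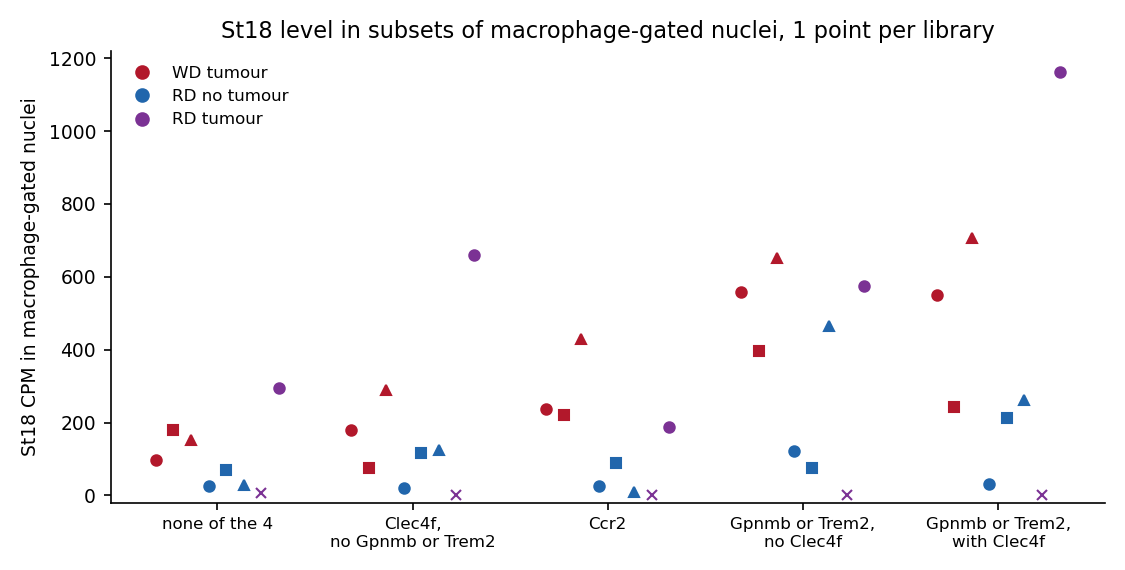
St18 level (CPM, linear axis) in subsets of macrophage-gated nuclei set by which of Gpnmb, Trem2, Clec4f and Ccr2 had a UMI, 1 point per library. Circles, squares and triangles are replicates 1, 2 and 3 of WD tumour and RD no tumour, the purple circle is RD tumour 2 and the cross is RD tumour 1. The Ccr2 set can share nuclei with the Gpnmb or Trem2 sets. RD tumour 2 is highest, at 1162 CPM, in the 14 nuclei with Clec4f and Gpnmb or Trem2.

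Within macrophage-gated nuclei of WD tumour, the gene with the largest minimum log2 ratio between nuclei with and without St18 was Atp6v0d2, a subunit of the vacuolar proton pump that acidifies lysosomes. It had 245, 44.8 and 236 CPM in St18-positive nuclei of WD tumour 1, 2 and 3, against 38.5, 14.1 and 72.6 CPM in the rest. The log2 ratios, with 10 CPM added to both sides, were 2.40, 1.19 and 1.58, and 1.02 to 2.09 in the 3 RD no tumour mice and RD tumour 2. The 8722 genes compared had at least 30 UMIs in St18-positive nuclei over the 3 WD tumour mice. Their median log2 ratio was 0.05, 0.19 and 0.05 in WD tumour 1, 2 and 3. Of these genes, 3 were higher by 1 or more in each WD tumour mouse (Atp6v0d2, Gm13710 and Adam8, a cell-surface metalloprotease). By that much 0 were lower. The filter drops genes with few UMIs in St18-positive nuclei, so these counts cannot weigh higher against lower genes.

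The next genes by the same rule were Ms4a14, Gm26569, Treml1, Blnk, Myof, Colec12 and Atp6v0a1, at a log2 ratio of at least 0.81 in each WD tumour mouse. Blnk encodes an adaptor of immune receptor signalling, Myof a membrane repair protein, Colec12 a scavenger receptor and Atp6v0a1 a further proton pump subunit. Myof, at 0.48 to 1.14, and Atp6v0a1, at 0.44 to 0.89, were above 0 in all 7 libraries, whereas Blnk was at -0.28 in RD no tumour 3 and Colec12 at -0.36 in RD no tumour 1. The lowest of the genes that passed the filter were Rpl39, Akr1c6, Uqcrfs1, Pgrmc1 and Qsox1, at -0.70 or below in each WD tumour mouse. St18-positive nuclei were deeper, with a median of 3068, 4424 and 2742 UMIs against 1991, 1369 and 2005 in WD tumour 1, 2 and 3, and held less hepatocyte marker RNA (log2 ratio -0.58, -1.25 and -0.41). Their mitochondrial share was 1.13% to 3.88% against 2.67% to 5.58% in the WD tumour mice and was lower in each of the 7 libraries, and the 12 dendritic gate markers summed to log2 ratios of 0.12 to 0.83 in these libraries. The part of these in the ratios was not tested.

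**Figure D5:**
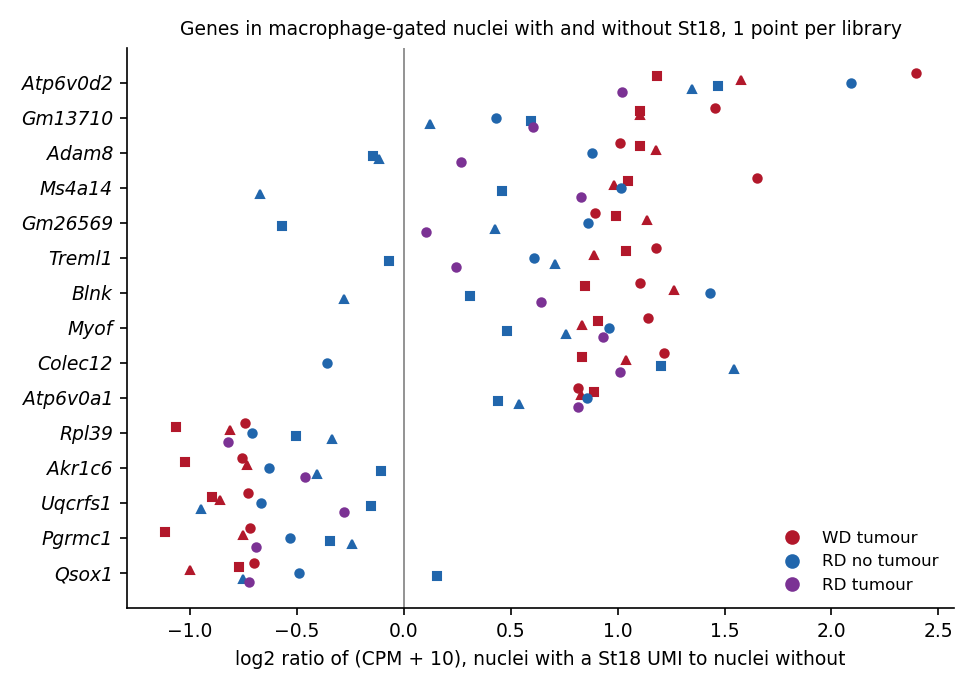
log2 ratio of CPM plus 10 between macrophage-gated nuclei with and without a St18 UMI, for the 10 genes with the largest minimum and the 5 with the smallest maximum over the 3 WD tumour mice, 1 point per library in 7 libraries. Circles, squares and triangles are replicates 1, 2 and 3, and the purple circle is RD tumour 2. Atp6v0d2 lies at 1.02 or more in each of the 7 libraries.

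Across cell classes, the profile of St18 was most like those of Bank1, Rims3, Adgre1, Slc7a8 and Timd4 (Pearson r = 0.874, 0.866, 0.849, 0.846 and 0.841 over 42 class-by-library profiles of 6 classes and 7 libraries, 15256 genes). Adgre1 encodes F4/80 and Timd4 a receptor of resident macrophages. The profiles share libraries and gates, and Adgre1 is itself a marker of the macrophage gate. The 6 classes were macrophage, endothelial, stellate or fibroblast, cholangiocyte, T or NK and hepatocyte. The dendritic gate and the B gate, of which Bank1 is a marker, were thus not among them. Between WD tumour and RD no tumour these genes moved less than St18 in macrophage-gated nuclei, with log2 differences of 0.18 for Bank1, -0.31 for Rims3, 0.20 for Adgre1, 0.65 for Slc7a8 and -0.08 for Timd4.

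Genes of lipid-associated macrophages were mostly on the same side as St18 in this comparison. Of the 18 listed, 8 were above every RD no tumour mouse in each WD tumour mouse and 0 were below, against 4.24% of all genes tested, and the median log2 difference was 1.03 against -0.02 over all genes. Trem2 was at 36.6, 41.6 and 58.7 CPM in WD tumour 1, 2 and 3 and 18.0, 15.7 and 7.12 CPM in RD no tumour 1, 2 and 3. Lpl, a lipase that frees fatty acids, was at 153, 162 and 346 CPM against 35.4, 52.2 and 88.3 CPM. Gpnmb was at 129, 14.2 and 257 CPM against 16.3, 21.9 and 8.54 CPM, so the groups overlapped through WD tumour 2. None of these genes was called: 0 of 13186 genes had a Benjamini-Hochberg adjusted p under 0.05 in edgeR, 403 had an unadjusted p under 0.05, and DESeq2 called 5.

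The Kupffer list did not share that shift, with 0 of 12 genes above and 2 below in every WD tumour mouse (3.81% of all genes tested were below) and a median log2 difference of -0.22. Clec4f was at 742, 128 and 914 CPM in WD tumour 1, 2 and 3 and 328, 1170 and 644 CPM in RD no tumour 1, 2 and 3. Of 12 monocyte genes, 10 had a log2 difference below 0 (median -0.76) and 0 were above in every WD tumour mouse. Ccr2, from this list, was at 69.1, 48.2 and 74.8 CPM against 164, 74.1 and 22.8 CPM. Of 16 genes of the MiT/TFE transcription factors and lysosome, 1 was above and 1 below, Atp6v1a and Ctsl (median 0.09). Of 7 tested osteoclast genes 1, Tnfrsf11a, the receptor for the osteoclast factor RANKL, was above (median 0.07).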

How the data were processed

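Values are raw UMI counts per gene and barcode, deposited by the authors; the file headers name Cell Ranger 7.0.0, and mm10 is named in the submitters' processing notes. Cell calling and intron counting are not given in the sources used here. St18 and the lists were chosen with earlier results of these data known, and the gate rule was set after the data were seen. No clustering was done. Possible doublets stayed in and were removed (Scrublet scores, scanpy 1.11.5) as an alternative.

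UMIs were summed per library. edgeR 4.0.16 (quasi-likelihood, TMM, filterByExpr, Benjamini-Hochberg, threshold 0.05) was fitted over the 3 groups without RD tumour 1, and tested on simulated data. DESeq2 1.42.0 was an alternative. Named genes were St18, its partners, list members, the 5 nearest profiles, and the 10 highest and 5 lowest genes by St18 detection. Likeness used classes of at least 50 nuclei. Odds ratios had 0.5 added. Intervals (95%; Poisson or Clopper-Pearson) and depth limits cover counting error only. Each library is 1 mouse; no batch is labelled. Replicate numbers are not known to pair mice.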

Additional observations from a re-analysis of the deposited data

How the results depend on the processing

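The WD tumour to RD no tumour log2 ratio of St18 CPM was 1.42 to 2.87 over the alternatives in macrophage-gated nuclei (1.82 as reported). In whole libraries it was 1.24 to 3.07 (1.84 as reported). Both highest values came from WD tumour 2 against RD no tumour 1, an alternative chosen after seeing the data. St18 was chosen on these values and the groups did not overlap. Runs that left out or picked mice therefore could not fall below 0, and they show the size of the ratio only. Leaving out 1 mouse gave 1.42 to 2.13 and 1.5 to 2.12. The difference in the share of St18-positive gated nuclei was 7.35 to 18.9 percentage points (13.5 as reported), the ends being 1 fewer and 1 more gate marker. The mean log2 odds ratio over 6 libraries was 2.55 to 3.06 for Gpnmb, 1.18 to 2.08 for Trem2 and 0.41 to 1.34 for Clec4f, and for Ccr2 it turned from 0.24 to -0.64 on thinning. The macrophage-gated share, -0.33 points, turned to 0.415 at 500 detected genes and to 1.95 with 1 fewer marker, and was -4.58 to 2.72 when 1 mouse was left out; the cause was not tested. DESeq2 called 5 genes in macrophage-gated nuclei and 132 in whole libraries against 0 in edgeR; leaving out 1 mouse gave 0 to 2 and 0 calls. The fit with a replicate block called 0 genes in both and gave a St18 log2 difference of 1.98 in macrophage-gated nuclei. Deviations of same-numbered mice from their group means correlated at -0.54, -0.19 and 0.26 in macrophage-gated nuclei. In whole libraries they correlated at -0.60, -0.49 and 0.41. The numbers are not known to pair mice and were not used as pairs. With RD tumour 1 apart, RD tumour is 1 library and has no spread.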

Other observations

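Other members of the St18 family were near absent. Myt1 had 0 to 5 UMIs and Myt1l 2 to 17 UMIs in a library, and neither passed the filter in macrophage-gated nuclei.

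Of the lipid-associated list, 3 genes are given here that had log2 ratios above 0 between macrophage-gated nuclei with and without St18 in the 7 libraries other than RD tumour 1. The summed UMIs of all 18 genes did not, with log2 ratios of -0.91 to -0.11, and Trem2 was at -0.10 in RD no tumour 2. The sum was mostly Apoe, at 5818 to 11406 CPM in the gate of these libraries, against at most 357 CPM for any other listed gene. The part of Apoe in the summed ratios was not tested. Mmp12, a macrophage elastase, was at 0.29 to 2.26, Lpl at 0.38 to 2.09 and Gpnmb at 0.33 to 2.76. Some receptors of resident macrophages were above 0 as well: Mertk, which takes up dying cells, at 0.11 to 1.14 and Vsig4, a complement receptor, at 0.15 to 0.65. Other genes of the Kupffer list did not stay above 0: Clec4f was at -1.25 to 0.59, Cd5l at -0.23 to 0.88 and Timd4 at -1.14 to 1.26. The summed UMIs of the whole Kupffer list were at -0.32 to 0.85. Each of these ranges had its lowest value in WD tumour 2 and its highest in RD tumour 2. The single genes named here were chosen after their values were seen.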
